A study of Mus musculus with 4 samples.

Results

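The miRNAs described here are 9 mature arms that have been linked to the brown or beige adipocyte programme: miR-193b-3p and miR-365-3p, both arms of miR-455, miR-182-5p, miR-203-3p, miR-32-5p, and both arms of miR-328. They were chosen by name, as mmu-miR-193b-3p, mmu-miR-365-3p, mmu-miR-455-3p, mmu-miR-455-5p, mmu-miR-182-5p, mmu-miR-203-3p, mmu-miR-32-5p, mmu-miR-328-3p and mmu-miR-328-5p, from the 1247 mouse miRNAs on the array, and all 9 had spots on it. Their signals were compared between the stromal-vascular fraction (SVF) of visceral white adipose tissue (visWAT) from mice treated with CL-316243 (CL), a β3-adrenoceptor agonist that triggers browning, and from vehicle-treated mice. The SVF is the pellet of preadipocytes, fibroblasts, blood vessel cells and immune cells that remains once floating adipocytes have been taken off digested fat.

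Female C57/BL6 mice of 8 weeks received 1 mg/kg CL in PBS, or PBS alone, for 3 days, and RNA of freshly isolated SVF was labelled with Cy3 and hybridised to Agilent mouse miRNA arrays with a single colour. There were 2 vehicle arrays and 2 CL arrays. Each held RNA pooled from several mice, and no allele or transgene was involved. All 4 arrays lay on the same slide. Vehicle arrays filled one row and CL arrays the other, so slide row and treatment cannot be told apart. Replicate numbers went with the slide's columns, each of which held 1 array of each group, and differences are therefore given within each column too.

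MicroRNAs are short RNAs that guide repressor complexes to mRNAs, mainly through pairing of the seed, bases 2 to 8 counted from the 5′ end. In cultured mouse cells, the miR-193b and miR-365 cluster has been reported to promote brown adipocyte differentiation and to repress muscle differentiation. miR-455 is induced by cold and by the bone morphogenetic protein BMP7 and drives brown differentiation of progenitors, miR-182 and miR-203 are enriched in brown fat and needed for its adipocytes, miR-32 is driven by a brown-fat super-enhancer, and miR-328 has been tied to the choice between brown fat and muscle. These roles were mostly described in adipocytes and in cells undergoing differentiation, whereas the arrays measured the non-adipocyte fraction.

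RefSeq's table for GRCm38.p6 held mature sequences for 7 of the 9 arms, and they are shown with the seed in capitals because the seed is what sets a miRNA's targets and its relatives. Arms of the miR-193b and miR-365 cluster come first, with miR-193a-3p, the only other miRNA on the array that has the seed of miR-193b-3p.
miR-193b-3p: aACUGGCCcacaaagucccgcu
miR-193a-3p: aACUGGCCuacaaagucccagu
miR-365-3p: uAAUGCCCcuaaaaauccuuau

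Both arms of the miR-455 hairpin follow, and they have different seeds.
miR-455-5p: uAUGUGCCuuuggacuacaucg
miR-455-3p: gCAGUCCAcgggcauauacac

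The remaining arms are those of miR-182, miR-203 and miR-32, the last of these beside its relatives miR-25-3p and miR-92a-3p, which have the same seed.
miR-182-5p: uUUGGCAAugguagaacucacaccg
miR-203-3p: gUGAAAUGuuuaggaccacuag
miR-32-5p: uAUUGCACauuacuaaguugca
miR-25-3p: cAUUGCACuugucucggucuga
miR-92a-3p: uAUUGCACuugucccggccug

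On GRCm38.p6, miR-193b-3p lies at chr16:13449570-13449591 and miR-365-3p at chr16:13453895-13453916, both on the plus strand and within the long non-coding RNA genes Gm32817 and Gm53058, with 4238 bases between the genes Mir193b and Mir365-1. An identical miR-365-3p is made from Mir365-2 at chr11:79726467-79726488 on the plus strand, and an array cannot tell these copies apart. Both miR-455 arms lie within the collagen gene Col27a1 on the plus strand, miR-455-5p at chr4:63256867-63256888 and miR-455-3p at chr4:63256904-63256924. The minus strand carries miR-182-5p at chr6:30165962-30165986, within the non-coding host gene Mirc35hg, and miR-32-5p at chr4:56895272-56895293, within the span of Tmem245. The position of miR-203-3p is chr12:112130927-112130948 on the plus strand, where the annotation also places the miRNA gene Gm51289. Whether these stretches are exonic or intronic in their host genes was not analysed here.

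Of the 9 arms, miR-455-3p and miR-455-5p had higher signals on both CL arrays, each by 0.69 on the log2 scale, and miR-328-5p and miR-203-3p had lower signals, by 0.74 and 0.36. miR-365-3p was lower by 0.36 and miR-32-5p higher by 0.42, and neither passed at the adjusted or the unadjusted threshold in the fit over 4 arrays. miR-193b-3p and miR-328-3p differed by 0.078 and 0.061, and miR-182-5p was detected on no array. In limma's fit, 0 of the 8 tested arms passed an adjusted p of 0.05, and the same was true of all 425 tested miRNAs (0%). At an unadjusted p of 0.05, 4 of the 8 passed, 2 with higher signal in CL and 2 with lower, where 35.1% of all tested miRNAs passed, 18.8% higher and 16.2% lower. SAM and the methods' t-test, run on the same values, passed 0 of the 8 arms at the unadjusted threshold. Nothing particular to these arms is read from that count. The median difference over the 8 tested arms was 0.070, against -0.0079 over all tested miRNAs.

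Signals here are log2 values after background correction, quantile normalization and a median polish over the spots of a miRNA, and they serve to compare arrays for the same miRNA, not different miRNAs on the same array. To be tested, a miRNA had to be detected by the scanner software on both vehicle arrays or on both CL arrays. Detection held on all 4 arrays for 6 of the 9 arms, whereas miR-32-5p and miR-455-5p entered the test only through the CL arrays. The smallest p that an exact permutation test can reach in this design is 0.333, and the p-values of limma measure only the spread between the arrays. A change in the number of cells that express a miRNA and a change in its level per cell cannot be told apart in RNA of a whole fraction.

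**Figure D1:**
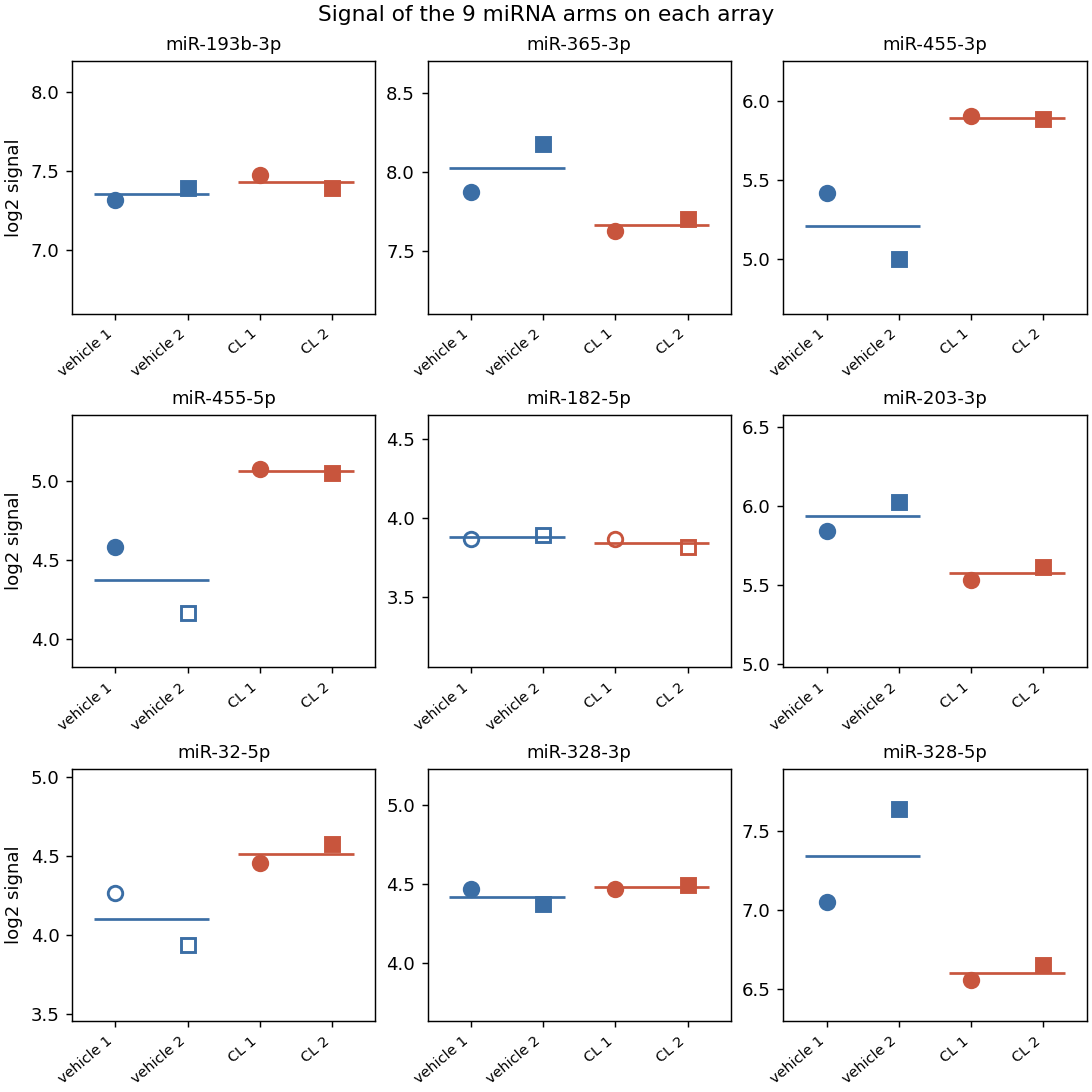
Log2 signal of each of the 9 arms on each array, in panels that all span 1.6 log2 units; circles are replicate 1, squares replicate 2, lines the group means, and open symbols mark arrays on which the scanner software did not detect the arm. Both miR-455 arms sit higher on the CL arrays, with vehicle 2 the lowest, and miR-328-5p, miR-365-3p and miR-203-3p sit lower on them.

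miR-193b-3p, from the cluster linked to brown adipogenesis, was among the arms with the smallest difference. Its log2 signal was 7.32 in vehicle 1, 7.39 in vehicle 2, 7.48 in CL 1 and 7.40 in CL 2. The CL arrays were above both vehicle arrays, but CL 2 and vehicle 2 were almost level, with a difference of 0.0014 in that column against 0.15 in the other. Group means were 7.36 ± 0.05 and 7.44 ± 0.06 (SD, n = 2 arrays each). The difference of 0.078 (SE 0.12, 95% interval -0.24 to 0.39) did not pass the test (limma, adjusted p = 0.673). All 40 of its spots were well above background on every array. The raw signal of its longest probe, of 17 bases, had medians of 261.8 and 246.6 on the vehicle arrays against 236.8 and 236.3 on the CL arrays, so that on this probe the CL arrays were the lower ones before normalization. Its 16-base probe gave 151.0 and 141.1 against 144.7 and 142.9, which overlapped. Its sign turned in 3 alternatives, to -0.063 without normalization between arrays, -0.026 with median centring and -0.0069 with the trend on probe sequence removed.

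miR-365-3p, the partner of miR-193b in that cluster, was lower on the CL arrays. It gave 7.87 in vehicle 1, 8.18 in vehicle 2, 7.62 in CL 1 and 7.70 in CL 2. Both CL arrays were below both vehicle arrays, and the gap between the vehicle arrays was wider than that between vehicle 1 and either CL array. The vehicle mean of 8.02 ± 0.22 (SD, n = 2) was 1.29-fold that of CL, 7.66 ± 0.05 (n = 2). On the log2 scale the difference was -0.36 (SE 0.15, 95% interval -0.77 to 0.05; limma, adjusted p = 0.173), with -0.25 in the first column and -0.48 in the second. It was -0.51 without vehicle 1, -0.21 without vehicle 2, -0.33 without CL 1 and -0.40 without CL 2. Raw spot medians of its 22-base probe were 313.6 and 352.1 on the vehicle arrays against 221.2 and 250.6 on the CL arrays, and its 21-base probe had the same order of groups.

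The pair of cluster members did not share a pattern over the 4 arrays. Profiles were compared as the root mean square difference between log2 signals, each miRNA centred on its own mean over the arrays. By this measure miR-365-3p was in place 231 of 424 for likeness to miR-193b-3p, with a difference of 0.241 where the median over all other tested miRNAs was 0.224. miR-365-3p also comes from Mir365-2 on chromosome 11, and what each copy adds was not tested. The miRNAs most like miR-193b-3p were miR-3076-5p, let-7d-3p and miR-3473c, and those most like miR-365-3p were miR-5103, miR-1904 and miR-1306-3p.

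The passenger arms of the cluster were dim. miR-193b-5p gave 4.90 and 5.12 on the vehicle arrays against 4.70 and 4.88 on the CL arrays, a difference of -0.22 (SE 0.15; limma, adjusted p = 0.317). miR-365-1-5p, the arm that is particular to the Mir365-1 hairpin on chromosome 16, gave 5.24 and 5.68 against 5.07 and 5.23, a difference of -0.31 (SE 0.19; adjusted p = 0.293). Both were lower on both CL arrays without passing the unadjusted threshold. miR-365-2-5p, from the chromosome 11 hairpin, was detected on no array.

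miR-193a-3p, which matches miR-193b-3p at 19 of 22 positions and has the same seed, had a larger difference than miR-193b-3p; whether these miRNAs differ from each other was not tested. Its log2 signals were 7.23 and 6.00 on the vehicle arrays against 8.06 and 7.92 on the CL arrays. Both CL arrays were above both vehicle arrays, and vehicle 2 was far below vehicle 1. The difference of 1.37 (SE 0.43) passed at an unadjusted p of 0.0279 but not after adjustment (limma, adjusted p = 0.120). With the slide column as a block its adjusted p was 0.0257.

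Both arms of miR-455, the cold-inducible miRNA that drives brown differentiation, had higher signal on the CL arrays. miR-455-3p gave 5.42 in vehicle 1, 5.00 in vehicle 2, 5.91 in CL 1 and 5.89 in CL 2. miR-455-5p gave 4.58, 4.16, 5.07 and 5.05 in the same order. For both arms the CL arrays were above the vehicle arrays without overlap, the CL arrays were nearly level, and vehicle 2 was the lowest. The means of miR-455-3p were 5.21 ± 0.29 for vehicle and 5.90 ± 0.01 for CL (SD, n = 2 each), and those of miR-455-5p were 4.37 ± 0.30 and 5.06 ± 0.02.

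The difference was 1.61-fold for miR-455-3p, or 0.69 on the log2 scale (SE 0.18, 95% interval 0.21 to 1.17), and it passed at an unadjusted p of 0.0153 but not after adjustment (limma, adjusted p = 0.102). miR-455-5p had the same fold of 1.61 (SE 0.18 on the log2 scale; unadjusted p = 0.0154, adjusted p = 0.102). Within the columns of the slide both arms differed by 0.49 in the first, and by 0.88 (miR-455-3p) and 0.89 (miR-455-5p) in the second. With the column as a block they passed the adjusted threshold (adjusted p = 0.0479 and 0.0478), where 20.2% of all tested miRNAs passed, 10.8% with higher and 9.41% with lower signal in CL. The third arm that passed in that fit was miR-328-5p. The block did not narrow the standard errors of the miR-455 arms, which were 0.185 and 0.184 with it against 0.179 and 0.180 without. Their lower p-values therefore do not show that the column accounted for part of their spread. Leaving out vehicle 1 raised the differences of the miR-455 arms to 0.89 and 0.90, and leaving out vehicle 2 lowered them to 0.48 for both. Without CL 1 they were 0.68 for both arms, and without CL 2 they were 0.70. Between the processing alternatives miR-455-3p ranged from 0.22 in the scanner totals (limma, adjusted p = 0.754) to 1.35 in the deposited table, and miR-455-5p from 0.24 under normexp on local background to 4.23 in the deposited table, where vehicle 2 was set to a floor. On vehicle 2 the scanner total of miR-455-3p was 45.6, although its positive probes summed to 14.7. On the other arrays its totals equalled those sums.

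The miR-455 arms were each other's nearest match among all tested miRNAs. Their centred profiles differed by 0.00307, whereas the median over the other miRNAs was 0.407 for miR-455-3p and 0.409 for miR-455-5p. Next in likeness for both were miR-127-3p and miR-381-3p, which were higher on the CL arrays by 0.67 and 0.63. Likeness was measured over 4 arrays only, and quantile normalization and the array itself are shared by all profiles. It was measured in the main processing alone. With the longest probe only, the differences of the miR-455 arms stayed alike, at 0.80 for both. Without background correction they were 0.52 for miR-455-3p and 0.40 for miR-455-5p, and in the scanner totals 0.22 and 1.76.

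Detection of the miR-455 arms differed between the groups. Of 40 spots for miR-455-3p, 29 and 20 were well above background on the vehicle arrays against 36 and 40 on the CL arrays. For miR-455-5p these were 8 and 1 against 19 and 20, and vehicle 2 was the single array on which the scanner software did not detect it. On the vehicle arrays the longest miR-455-3p probe, of 16 bases, had raw medians of 85.6 and 59.5, and on the CL arrays of 104.1 and 106.8, while the negative controls of the arrays had medians of 37.0, 31.2, 38.4 and 32.2. The 18-base probe of miR-455-5p gave 51.2 and 34.3 against 59.4 and 56.0, so that on vehicle 2 it was hardly above those controls. Both probes of each arm had higher medians on the CL array than on the vehicle array of the same column.

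**Figure D2:**
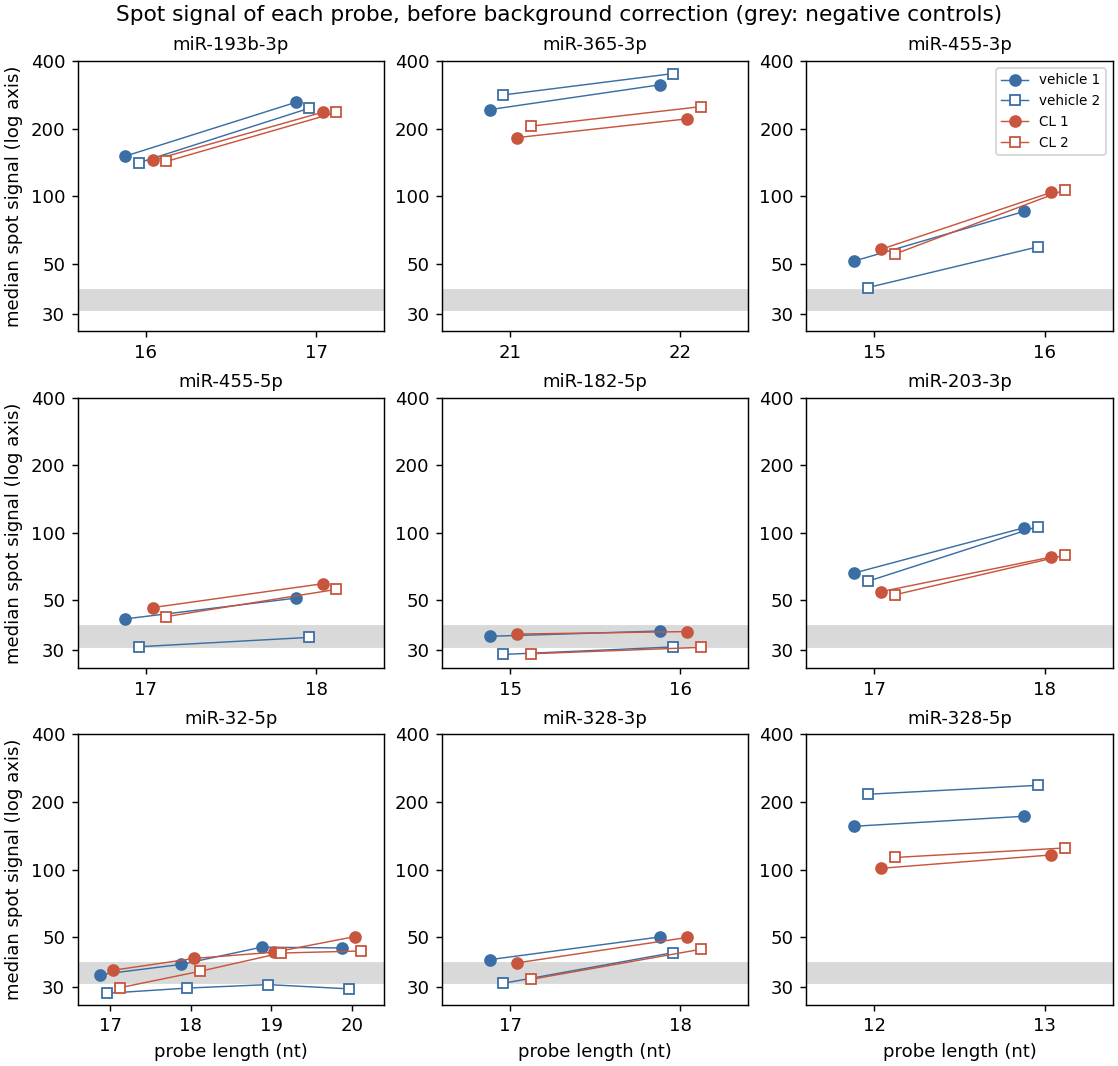
Median raw spot signal (log axis) of each probe of the 9 arms against probe length in bases, for vehicle 1, vehicle 2, CL 1 and CL 2; the grey band spans the medians of the negative controls. The probes of miR-182-5p lie within or just below the band, those of miR-455-5p on vehicle 2 lie in it, and those of miR-328-5p and miR-365-3p lie far above it with both vehicle arrays on top.

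miR-182-5p, one of the brown-fat-enriched pair with miR-203, was not detected in the SVF. Its log2 signals were 3.87 and 3.90 on the vehicle arrays against 3.87 and 3.82 on the CL arrays, which overlapped. Only 1 of its 40 spots was well above background, on vehicle 1, and its probes had raw medians between 28.8 and 36.6, where the negative controls had medians of 31.2 to 38.4. The other arms of its cluster, miR-182-3p, miR-183-5p, miR-183-3p, miR-96-5p and miR-96-3p, were detected on no array either. miR-182-5p was not tested, and no fold is given for it.

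miR-203-3p, the other of that pair, was measured on every array and was lower after CL. It gave 5.84 in vehicle 1, 6.02 in vehicle 2, 5.53 in CL 1 and 5.61 in CL 2. Both CL arrays were below both vehicle arrays, and the spread within each group was smaller than the gap between them. The vehicle mean of 5.93 ± 0.13 was 1.28-fold the CL mean of 5.57 ± 0.06 (SD, n = 2 each). On the log2 scale the difference was -0.36 (SE 0.13, 95% interval -0.71 to -0.01), with -0.31 and -0.41 in the columns of the slide, and it passed at an unadjusted p of 0.0456 but not after adjustment (limma, adjusted p = 0.137). With the column as a block it no longer passed at the unadjusted threshold (adjusted p = 0.175). The difference was -0.45 without vehicle 1, -0.27 without vehicle 2, -0.32 without CL 1 and -0.40 without CL 2. Between the processing alternatives it ranged from -0.59 in the deposited table to -0.20 under normexp on local background. Of its 40 spots, 32 were well above background on CL 1 and all 40 on the other arrays. Its 18-base probe had raw medians of 105.4 and 106.7 on the vehicle arrays against 78.1 and 79.5 on the CL arrays. The passenger arm miR-203-5p was detected on no array, and the closest profiles were those of miR-30c-2-3p, miR-542-5p and miR-24-3p.

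miR-32-5p, the miRNA driven by a brown-fat super-enhancer, was at the edge of detection. The scanner software detected it on both CL arrays and on neither vehicle array. Its log2 signals were 4.27 and 3.94 on the vehicle arrays against 4.46 and 4.58 on the CL arrays, without overlap. The measured means were 4.10 ± 0.23 for vehicle and 4.52 ± 0.08 for CL (SD, n = 2 each), a difference of 0.42 whose 95% interval, -0.017 to 0.85, included 0 (limma, adjusted p = 0.150). These means correspond to 1.34-fold higher signal in CL. Both vehicle signals were above the dimmest detected signals of their arrays, 3.92 and 3.73. The bound set for an undetected group was therefore the same 1.34-fold, and it is no separate minimum. This fold takes the means of this processing as they are, and it covers neither their error nor the alternatives given next.

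No more than 1 of the 40 spots of miR-32-5p was well above background on any array, including those on which it was called detected. Raw medians of its longest probe, of 20 bases, were 44.7 and 29.4 on the vehicle arrays against 50.3 and 43.4 on the CL arrays, so that vehicle 1 was level with CL 2. On the 19-base probe vehicle 1, at 45.1, was above CL 1 at 42.9 and CL 2 at 42.5. The difference depended strongly on the processing. It was 0.029 with the trend on probe sequence removed, 0.11 with the local background subtracted by normexp and an offset of 50, and 1.22 and 1.33 where the 75th percentile of detected or of all probes set the scale. In the scanner's own totals and in the deposited table, where undetected miRNAs are set to a floor, it was 4.33 and 5.30 (limma, adjusted p = 0.00387 and 0.00426). The scanner totals of miR-32-5p on CL 1 and CL 2 were 20.7 and 27.3, although its positive probes summed to 4.39 and 5.41. On vehicle 1 the total was 1.32, below a probe sum that was close to that of CL 1. The 4.33 therefore rests on the CL totals as well as on the vehicle floor. The passenger arm miR-32-3p was detected on no array.

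The relatives that have the seed of miR-32-5p were bright enough to measure. miR-25-3p gave 8.25 and 8.53 on the vehicle arrays against 8.78 and 8.64 on the CL arrays, a difference of 0.32 (limma, adjusted p = 0.203). miR-92a-3p gave 8.23 and 8.53 against 8.24 and 8.19, which overlapped (difference -0.16, adjusted p = 0.471). miR-363-3p, miR-367-3p and miR-92b-3p, with the same seed, were detected on no array, nor was miR-5129-3p, the only other miRNA with the seed of miR-455-5p. The profiles most like that of miR-32-5p were those of miR-380-3p, miR-299b-3p and miR-376b-5p.

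The arms of miR-328 went apart. miR-328-5p was lower after CL. Its log2 signals were 7.05 in vehicle 1, 7.64 in vehicle 2, 6.55 in CL 1 and 6.65 in CL 2. Both CL arrays were below both vehicle arrays, and the vehicle arrays were themselves further apart than vehicle 1 was from the CL arrays. The vehicle mean of 7.34 ± 0.41 was 1.67-fold the CL mean of 6.60 ± 0.07 (SD, n = 2 each).

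For miR-328-5p the log2 difference was -0.74 (SE 0.23, 95% interval -1.35 to -0.13), which passed at an unadjusted p of 0.0272 but not after adjustment (limma, adjusted p = 0.119). It was -0.50 in the first column and -0.99 in the second, and with the column as a block it passed (adjusted p = 0.0436). Without vehicle 1 it was -1.03 (adjusted p = 0.00870), and without vehicle 2 it was -0.45 (adjusted p = 0.0656). All 40 of its spots were well above background on every array. Raw medians of its 13-base probe were 172.7 and 237.2 on the vehicle arrays against 116.2 and 124.8 on the CL arrays, and its 12-base probe had the same order.

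miR-328-3p was near background and differed little. It gave 4.47 and 4.37 on the vehicle arrays against 4.47 and 4.49 on the CL arrays, with CL 1 and vehicle 1 level. The difference was 0.061 (SE 0.12, 95% interval -0.25 to 0.37; limma, adjusted p = 0.739), and it turned to -0.12 with the trend on probe sequence removed and to -0.089 with the 75th percentile of detected probes as the scale. It was 0.69 in the scanner totals and 1.69 in the deposited table, the latter at an unadjusted p of 0.00398 and not passing after adjustment (limma, adjusted p = 0.128). The scanner software called it detected on all 4 arrays, although only 5 and 2 of its 40 spots on the vehicle arrays against 2 and 2 on the CL arrays were well above background. In likeness to miR-328-3p, the other arm was in place 366 of 424. Its nearest profiles were those of miR-223-3p, miR-331-3p and miR-29c-5p, and those of miR-328-5p were miR-680, miR-3960 and miR-139-3p.

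**Figure D3:**
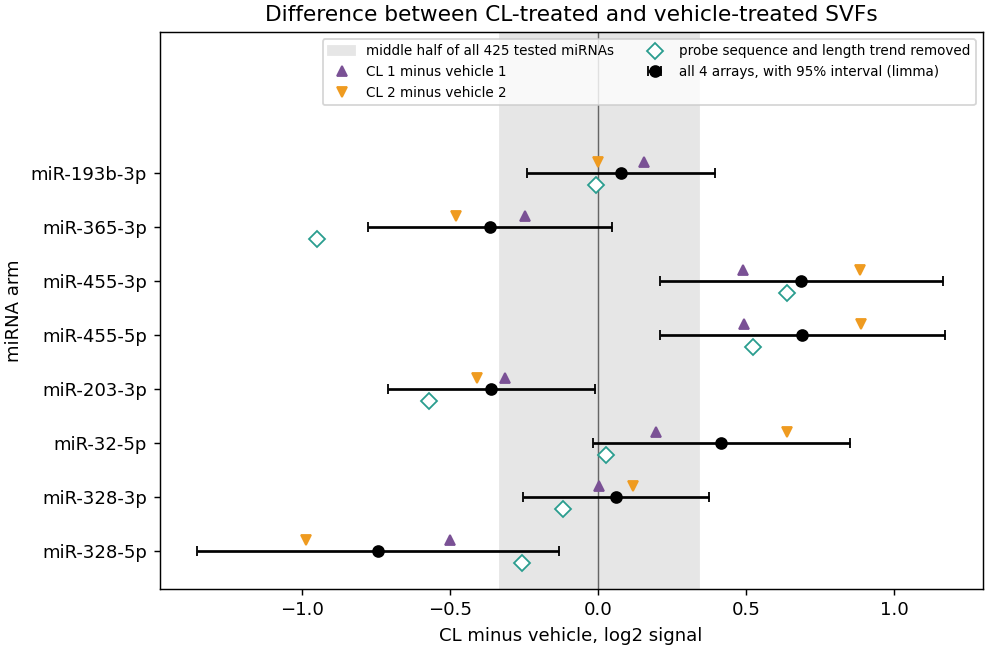
Log2 difference (CL minus vehicle) of the 8 tested arms: black points with 95% intervals from limma over 4 arrays, triangles the differences within each slide column, and open diamonds the difference after the probe trend described in the text was removed; the grey band runs from the lower to the upper quartile of all 425 tested miRNAs. The intervals of both miR-455 arms, miR-203-3p and miR-328-5p exclude 0, and the diamonds of miR-328-5p and miR-32-5p lie well inside their points, whereas that of miR-365-3p lies further out.

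On these arrays the difference between the groups also varied with the composition of the probe. Across the 425 tested miRNAs, which share arrays and normalization and are not independent, Spearman's rho of the difference was -0.43 with the C share of the longest probe, 0.089 with its G share and 0.47 with its length. Pearson's r was -0.38, 0.040 and 0.44. Probes on this platform are short stretches complementary to the 3′ part of a miRNA and are trimmed to level their binding strength. The longest probe of miR-328-5p had 61.5% C, at percentile 96.9 of the tested miRNAs, whose median was 31.8%. That of miR-365-3p held 4.55% C in 22 bases, against a median length of 17, and that of miR-32-5p held 15.0% C bases. In the longest probes of miR-455-3p and miR-455-5p, 18.8% and 22.2% of the bases were C bases.

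A linear trend on length and on the shares of C and G in the longest probe was then removed from each array. After this, miR-455-3p still differed by 0.64 and miR-455-5p by 0.52 (limma, adjusted p = 0.0683 and 0.0707), and miR-203-3p by -0.57 (adjusted p = 0.0716). The difference of miR-328-5p shrank to -0.26 (adjusted p = 0.158), and that of miR-365-3p widened to -0.95 (adjusted p = 0.0807). None of the 8 passed after adjustment in that fit, and the 4 that passed at the unadjusted threshold, 2 higher and 2 lower, compare with 38.8% of all tested miRNAs, 20.2% higher and 18.6% lower. Those 4 were both miR-455 arms, miR-203-3p and miR-365-3p, whereas miR-328-5p no longer passed. The part of probe sequence in the differences of single arms was not tested further.

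**Figure D4:**
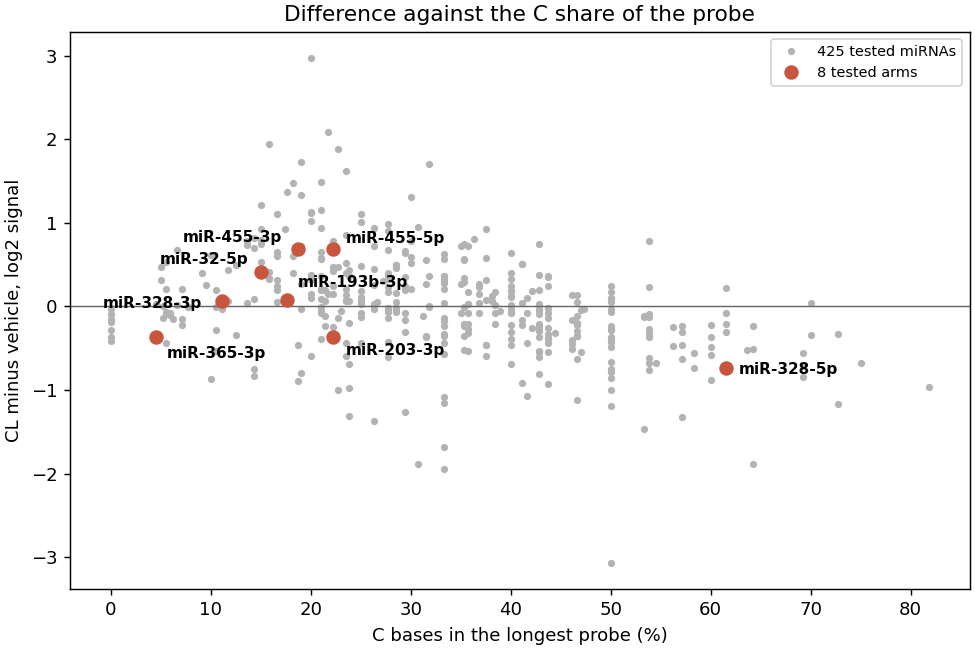
Log2 difference (CL minus vehicle) of the 425 tested miRNAs against the share of C bases in their longest probe, in percent; the 8 tested arms are named. miR-328-5p lies at 61.5% C with a difference of -0.74, and the other arms lie between 4.55% and 22.2% C.

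In all 8 tested arms the CL and vehicle arrays did not overlap, as in 72.9% of all tested miRNAs, 38.1% with CL above and 34.8% with CL below. This count carries little weight, since miR-32-5p and miR-455-5p could be tested only because their CL arrays were detected. In miR-193b-3p, miR-365-3p, miR-32-5p and both miR-328 arms the groups were also separated by less than the gap between arrays within a group.

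Among 10 other arms from the hairpins or clusters of these miRNAs, only miR-365-1-5p was detected on all 4 arrays, 8 were detected on none, and neither of the 2 tested passed at the unadjusted threshold. Of 7 other miRNAs linked to the promotion of brown or beige fat, 6 were tested. miR-196a-5p, which represses the white-fat gene Hoxc8, was higher in CL by 0.80 (SE 0.20, unadjusted p = 0.0124), and miR-30c-5p, of a family that favours thermogenic genes, was lower, with a difference of -0.43 (SE 0.14, unadjusted p = 0.0313). The other 4 did not pass, and the median over the 6 was -0.015.

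The 12 miRNAs linked to restraint of thermogenic fat were all tested. Those that passed at the unadjusted threshold with higher signal in CL were miR-34a-5p, miR-106b-5p and miR-125b-5p, the last by 0.86 (SE 0.20, unadjusted p = 0.00931), and miR-327 passed with lower signal. These 4 of 12, and the 2 of 6 among the promotion miRNAs, are near the 35.1% of all tested miRNAs that passed. miR-327 is on the list through the study that reported these arrays, which picked it among miRNAs downregulated on them. Its lower signal was therefore known beforehand and adds nothing to the count. miR-494-3p had the largest difference, 1.02, but did not pass (SE 0.47, unadjusted p = 0.0874), with CL 1 at 11.75 and CL 2 at 10.49. The median over the 12 was 0.32. Without a block, none of the promotion or restraint miRNAs passed after adjustment in limma. With the slide column as a block, miR-196a-5p (adjusted p = 0.0418), miR-34a-5p (0.0418), miR-106b-5p (0.0347), miR-125b-5p (0.0347) and miR-327 (0.0347) did, where 20.2% of all tested miRNAs passed.

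Markers of the cell types that the SVF can hold also differed between the groups. All 4 fibroblast miRNAs passed at the unadjusted threshold with higher signal in CL, led by miR-199b-5p (1.48) and miR-199a-5p (1.15), where 18.8% of all tested miRNAs did. Their summed linear signal was 2019.8 to 3409 in vehicle and 6174 to 6302 in CL. For endothelial cells, both arms of miR-126 were lower, with sums of 14238 to 15504 against 5149 to 6470, where 16.2% of all tested miRNAs passed with lower signal. Of the leukocyte miRNAs, miR-142-3p and miR-142-5p were higher by 2.09 and 1.95, and miR-150-5p was lower, with a difference of -0.89. The remaining one, miR-223-3p, differed by 0.086 and did not pass (limma, adjusted p = 0.640). At the unadjusted threshold 2 of the 4 passed higher and 1 lower, against 18.8% and 16.2% of all tested miRNAs. Sums over the 4 were 1725 to 2300 against 3318 to 3408. The 3 red cell miRNAs on the array all passed the unadjusted threshold with higher signal, where 18.8% of all tested miRNAs did. They were led by miR-144-3p (2.98) and miR-144-5p (0.92), with sums of 8204 to 9550.3 against 14295 to 16907. With the probe trend removed only miR-144-3p of the 3 passed at that threshold, and miR-144-5p (0.36) and miR-451a (0.22) did not. All 4 fibroblast miRNAs and both arms of miR-126 still passed in that fit.

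Of the mural cell miRNAs, miR-145a-5p was lower (-0.75) and miR-143-3p did not pass (-0.43), with sums of 536 to 635 against 393 to 426. Epithelial or mesothelial miRNAs, among which miR-203 is often counted, were near background, with 5 of 6 detected on no array and miR-200b-3p not passing (0.24). The 4 skeletal muscle miRNAs, which would mark the lineage that shares a progenitor with brown fat, had sums of 216 to 405 on the vehicle arrays and 359 to 395 on the CL arrays, and none passed, miR-1a-3p (0.50) and miR-133b-3p (0.34) having the largest differences. Of the neural pair, miR-124-3p was lower (-1.68) and miR-9-5p was detected on no array. The part of these cell types in the differences of the brown-fat-linked arms was not tested.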

How the data were processed

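Total RNA of visWAT-SVF was hybridised to 4 one-colour Agilent miRNA arrays (2 vehicle, 2 CL). The authors deposited scanner files of Feature Extraction 10.7.1.1 with the linear intensity of each of 52044 spots per array, and a table of log2 values. The medians of that deposited log2 table were -3.31, -3.30, -3.20 and -3.26. It is not centred per miRNA and runs in the direction of the signal, and the details of its scaling are not given in the sources used here. For the arrays of the study, the methods give robust multi-array analysis and SAM.

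From the intensities, limma 3.58.1 in R 4.3.3 corrected the background with normexp over all spots (offset 0). Control spots and 1762 to 2550 outlier spots per array were dropped, quantile normalization was applied between arrays, and the spots of a miRNA were summarised on the log2 scale by median polish. No miRNA spot was saturated. The scanner software detected 386 to 431 of 1247 miRNAs per array. The 425 with detection on both vehicle or both CL arrays were tested by lmFit and eBayes (two-sided), and p-values were adjusted over all of them by the Benjamini-Hochberg method. A group with no detection was given its measured mean or the dimmest detected signal of each array, whichever was higher, for a lower bound.

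Deviations from the group means had a correlation of 0.12 between arrays of the same replicate number, and no source says that these numbers pair the pools, so the block is an alternative. The number of arrays limits the precision, and nothing in the labels says which mice entered which pool. The members and lists were chosen with earlier results of these data known. The text names all 9 arms, the arms of their hairpins and clusters, miRNAs with the same seed, 3 nearest profiles per tested arm, and of each other list the 2 largest differences among miRNAs detected on all arrays, with further list members where a count is spelled out. Cell markers were common marker miRNAs, of which miR-486-5p was not found by that name. Sequences and positions are RefSeq's on GRCm38.p6. The test was tried on simulated arrays. Alternatives covered background, scaling, summary, filter, test, block, probe trend and leaving out each array.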

Additional observations from a re-analysis of the deposited data

How the results depend on the processing

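With 2 arrays per group, depth of signal limits miR-32-5p, miR-328-3p, miR-182-5p and miR-455-5p, which lie near the negative controls. The 8 tested arms kept their direction in all alternatives but 5 values: miR-193b-3p turned to -0.063 without normalization between arrays, -0.026 with median centring and -0.0069 with the probe trend removed, and miR-328-3p turned to -0.089 when detected probes set the 75th percentile and to -0.12 with the probe trend removed. The cause was not tested.

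After adjustment, 0 of 425 miRNAs and 0 arms passed with limma, and at an unadjusted p of 0.05, 149 miRNAs and 4 arms. The adjusted count over all miRNAs became 64 without normalization, 44 with median centring, 2 with an intensity trend, 26 with the scanner totals, 7 with the deposited table, 31 with the probe trend removed and 86 with the replicate number as a block. Of the arms, 1 passed after adjustment without normalization (miR-328-5p), 1 with scanner totals and 1 with the deposited table (miR-32-5p in both, with vehicle at a floor), and 3 with the replicate block (both arms of miR-455 and miR-328-5p). At the unadjusted threshold the miRNA count was 91 with median centring, 60 with SAM, 52 with the methods' t-test and 211 of 1247 with no filter. That of the arms was 1 with scaling to the 75th percentile of all probes, with median centring and with scanner totals, 2 with detection on all 4 arrays, 3 in the replicate block fit, and 0 with SAM and the methods' t-test. In 2 fits the arm count stayed at 4 while the arms changed. With an intensity trend miR-32-5p passed in place of miR-203-3p. With the probe trend removed miR-365-3p passed in place of miR-328-5p. The arms also changed where the count was lower. With the deposited table the 3 that passed were miR-203-3p, miR-32-5p and miR-328-3p, whereas both miR-455 arms and miR-328-5p did not. Without normalization between arrays the 3 were miR-365-3p, miR-455-3p and miR-328-5p. With scanner totals the 1 that passed was miR-32-5p. Leaving out each array gave 1 to 229 miRNAs after adjustment and 61 to 262 before, and 0 to 6 arms after adjustment and 0 to 6 before; the highest counts came without vehicle 1, and a lone array was assumed to vary like the other group. With the replicate block miR-203-3p also no longer passed at the unadjusted threshold; it changed no call of an arm beyond these 4.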
